A study of Mus musculus with 12 samples.

Results

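A set of 10 autosomal genes with a discontinuous level across the 12 heart libraries of the series was described: Cyfip2, Pttg1, Arc, Hsd17b7, Cwc22, Baiap2l1, Plekhh2, Acot5, Nxpe4 and Rps2. They are 10 of the 40594 genes in the count table, and all 10 were among the 14942 autosomal genes with enough counts to be tested. Each was selected because its level fell into a high and a low set of libraries, with a gap of at least 2 in log2 CPM (counts scaled to 1e+06 per library) and at least 2 libraries in each set, and because the sets did not follow the ventricle. The levels that follow are therefore a description of how the genes were chosen, and no test was made on them. Each library is RNA extracted with Trizol from a left (LV) or right (RV) heart ventricle of an adult mouse and made into an Illumina library, and the genotype is either control or Wnt LOF, that is, with lost function of Wnt signalling. The 4 groups (control LV, control RV, WntLOF LV and WntLOF RV) each hold 3 libraries numbered 1 to 3. The labels name neither the targeted gene, its allele or a Cre driver, nor strain, sex or breeding, and they do not say whether an LV and an RV library with the same number came from 1 heart or whether a group's libraries are from separate animals. Spread within a group is thus the spread between libraries, part of which may be technical. In each group the library numbered 3 differed from the others in Ddx3y and Xist, as given below. The libraries of a group therefore do not all come from 1 animal.

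Inbred mouse strains differ in deletions, gene copy number, retrogene insertions and regulatory variants. In animals of mixed descent such a difference can show as a gene that is abundant in some individuals and nearly silent in others. This can hold in every tissue sample of the same individual, whatever the treatment, but need not. Sex-linked expression, local cell composition and the assignment of reads between near-identical gene copies can give a similar picture in bulk RNA. Which of these applies to a gene here was not tested, except where a value below bears on it directly. In bulk tissue, fewer expressing cells and less RNA per cell cannot be told apart.

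Library totals ran from 13.3 to 19.2 in units of 1e+06 counts. The summed level of 6 ventricular muscle markers was 61900 to 68600 CPM, and Ctnnb1, which encodes beta-catenin, lay between 426 and 598 CPM in the control libraries and between 352 and 532 CPM in the WntLOF libraries. Ddx3y, a Y-linked gene, was at 102 to 136 CPM in the 4 libraries numbered 3 and at no more than 0.772 CPM in the other 8. Xist, the RNA that coats the inactive X chromosome, was at 3.59 to 25.1 CPM in those 4 and at 494 to 580 CPM in the other 8. None of the 10 summed marker lists (ventricular and atrial muscle, neuron and Schwann cell, T and B cell, cycling, epithelial and mesothelial, endothelial, fibroblast, macrophage, erythroid) divided the libraries in the way any of the 10 genes did. A sum can hide a single gene: Hba-a2 of the erythroid list divided the libraries as Cyfip2, Pttg1 and Arc did.

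Some libraries went against their labels. The libraries labelled control LV 2 and WntLOF RV 1 were the nearest of all 66 pairs: over 12955 genes with at least 50 summed counts, the mean chi-square per gene was 3.1, where sampling noise alone gives a value near 1, and the next nearest pair, control LV 1 and control RV 1, had 10.5. The median over the 66 pairs was 24.8. LV and RV pairs of the same genotype and number ran from 10.5 to 47.6, the highest being WntLOF LV 2 and WntLOF RV 2. Control LV 1 and WntLOF RV 1, of different genotype, had 11.7. The measure alone thus does not mark a shared origin. The value of 3.1 is above sampling noise, but that reference holds no spread from library preparation. It therefore cannot tell whether the libraries labelled control LV 2 and WntLOF RV 1 came from separate samples. They were kept as labelled. Wif1, which encodes a secreted Wnt inhibitor, separated the ventricles except in 2 WntLOF libraries: it was at 12 to 18.4 CPM in the control RV libraries and at 13.2 and 14.2 CPM in the libraries labelled WntLOF RV 3 and WntLOF RV 2, but at 2.55 CPM in the library labelled WntLOF RV 1 and at 13.5 CPM in the library labelled WntLOF LV 1. The remaining LV libraries lay between 1.63 and 3.18 CPM. The gaps of the members, their states by genotype and the edgeR fit by group are therefore also given without the libraries labelled control LV 2, WntLOF LV 1 and WntLOF RV 1. The other results include these libraries.

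A widest gap was computed for each gene by sorting its 12 log2 CPM values (prior count of 2) and taking the largest step between neighbours that left at least 2 libraries on each side. The median gap over the 14942 autosomal genes was 0.14, and 35 of them (0.234%) reached 2. The 10 genes are among those 35 by construction, with gaps from 2.25 (Arc) to 3.75 (Pttg1) and a median of 3.28. Just inside the threshold stood C1s2 with 2.02 and Rims2 with 2.07, which are not members, and just outside it Wif1 with 1.88 and the pseudogene Tmem181c-ps with 1.84. The low side was at 0 counts for Acot5 alone among the 10, so for the other 9 the pattern is of high and low rather than on and off: the lowest library held 1 count for Nxpe4, 22 for Hsd17b7 and 336 for Plekhh2.

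**Figure D1:**
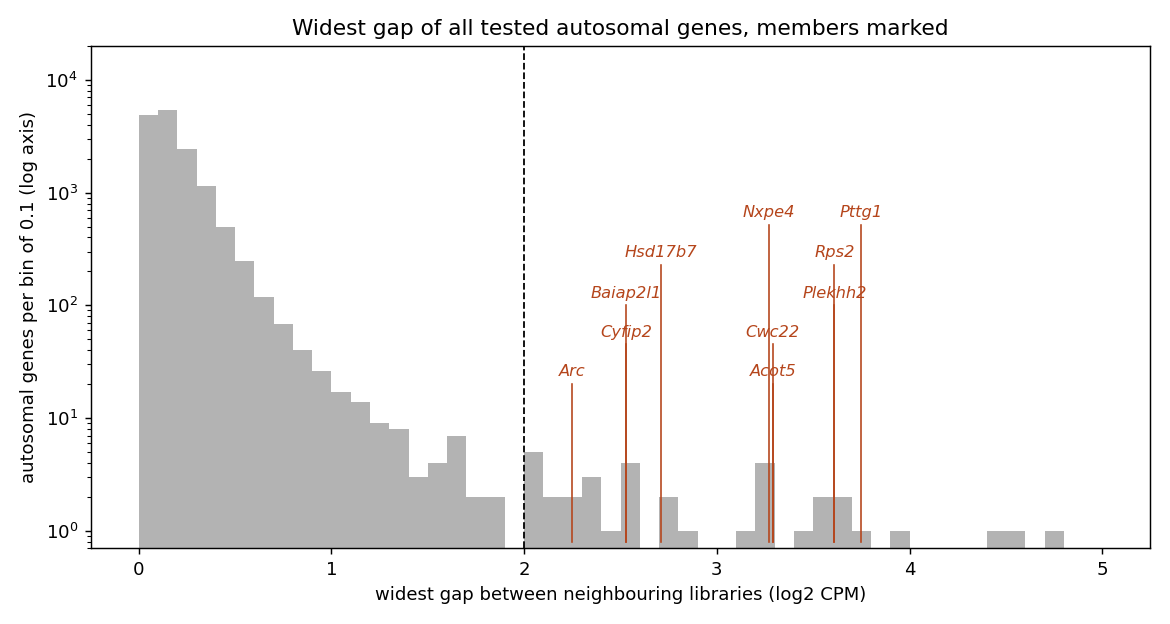
Number of tested autosomal genes (vertical axis, logarithmic) by the widest gap between neighbouring libraries in log2 CPM (horizontal axis, bins of 0.1, members included in the grey bars), with the 10 members marked by red lines and the threshold of 2 dashed. The members lie between 2.25 and 3.75, where the median of all 14942 genes is 0.14.

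Per library, the plot of levels shows 7 different divisions of the 12 libraries among the 10 genes. Cyfip2, Pttg1 and Arc shared a division, Cwc22 and Rps2 shared another, and Hsd17b7, Baiap2l1, Plekhh2, Acot5 and Nxpe4 each had their own.

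**Figure D2:**
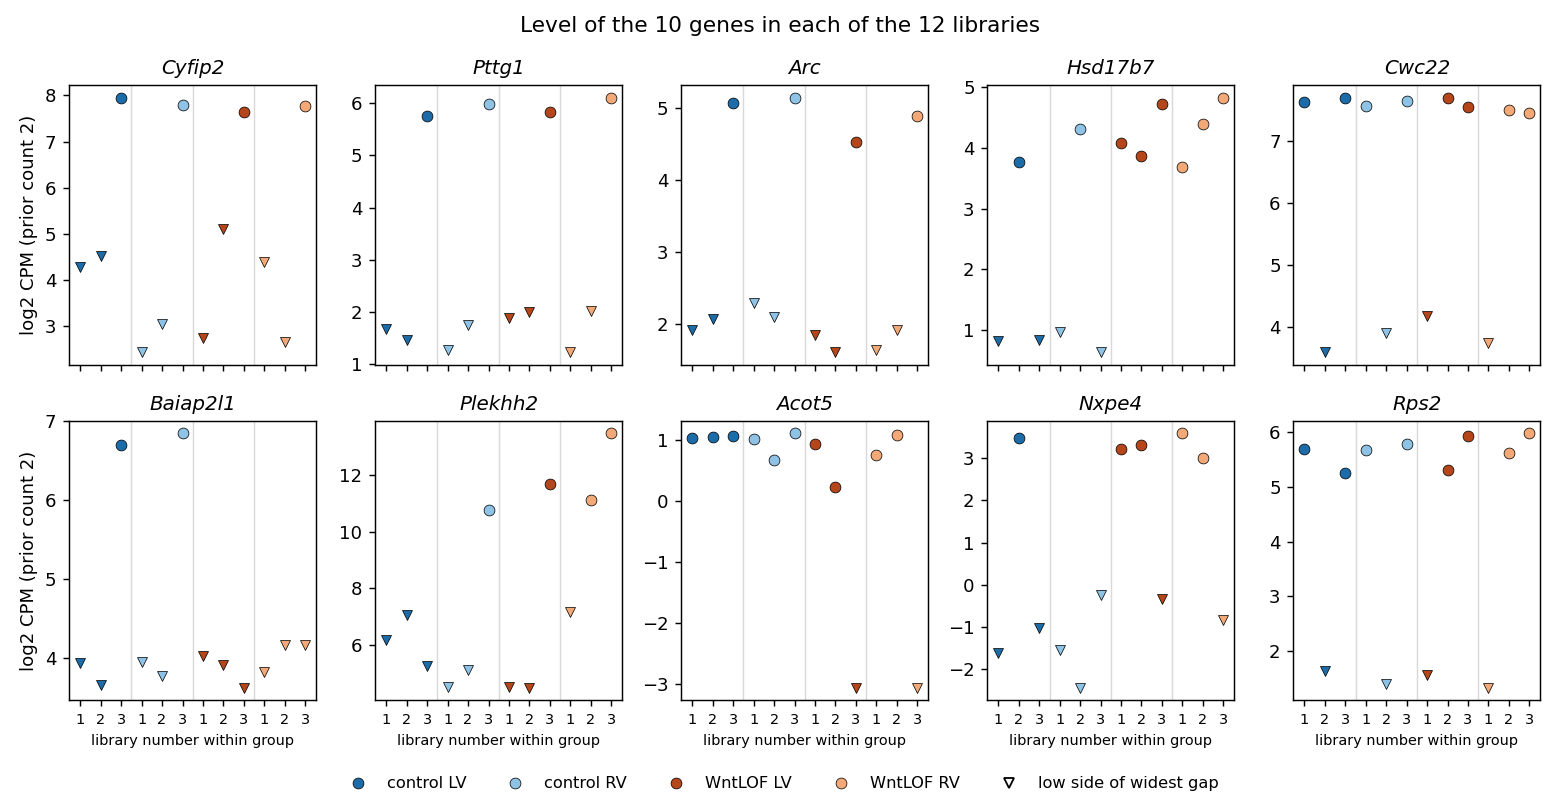
Level of each gene in log2 CPM with a prior count of 2 (vertical axes, different ranges) in the 12 libraries (horizontal axes, number within the group, groups by colour); circles are libraries on the high side of the gene's widest gap and triangles those on the low side. Cyfip2, Pttg1 and Arc are high in the 4 libraries numbered 3, and Cwc22 and Rps2 are low in control LV 2, control RV 2, WntLOF LV 1 and WntLOF RV 1.

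Cyfip2, Pttg1 and Arc were high in the 4 libraries numbered 3 and low in the other 8. Cyfip2 (ENSMUSG00000020340, chromosome 11) encodes a subunit of the WAVE complex, which drives actin branching downstream of Rac1. Cyfip2 was at 19.3, 22.8 and 246 CPM in control LV 1, 2 and 3, at 5.36, 8.15 and 221 CPM in control RV, at 6.58, 34.4 and 199 CPM in WntLOF LV, and at 20.9, 6.26 and 216 CPM in WntLOF RV. The 4 high libraries stood within 0.16 of their neighbours on the log2 scale, whereas the 8 low ones fell apart again by a gap of 1.24: the libraries labelled control LV 1, control LV 2, WntLOF LV 2 and WntLOF RV 1 held 19.3 to 34.4 CPM, and those labelled control RV 1, control RV 2, WntLOF LV 1 and WntLOF RV 2 held 5.36 to 8.15 CPM. This lower step separated the libraries in the same way as Wif1 did, with the opposite sign, and the libraries numbered 3 showed no such step.

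Pttg1 (ENSMUSG00000020415, chromosome 11) encodes securin, the inhibitor of separase that holds sister chromatids together until anaphase. Pttg1 was at 3.04, 2.64 and 54.1 CPM in control LV, at 2.29, 3.24 and 63 CPM in control RV, at 3.56, 3.88 and 57 CPM in WntLOF LV, and at 2.22, 3.91 and 69 CPM in WntLOF RV. Its sides did not approach each other, with a gap of 3.75, and within each side no step exceeded 0.2. Markers of cycling cells did not divide the libraries in this way: their summed level ran from 8.24 CPM in WntLOF LV 1 to 44.3 CPM in WntLOF LV 2, which are both on the low side of Pttg1. Arc (ENSMUSG00000022602, chromosome 15), an immediate early gene best known from activated neurons, was at 3.65, 4.11 and 33.4 CPM in control LV, at 4.8, 4.17 and 35.4 CPM in control RV, at 3.5, 2.96 and 23.2 CPM in WntLOF LV, and at 3, 3.67 and 29.8 CPM in WntLOF RV. Its gap of 2.25 was the narrowest of the 10. Since the 4 high libraries are also those with Ddx3y and without the Xist level of the others, sex and any other feature of the libraries numbered 3 cannot be told apart for these 3 genes.

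The promoters of Cyfip2 and Pttg1 are shown because the 2 genes lie on the same chromosome and were high in the same libraries; Arc has no entry in the promoter table and is named only. Each sequence is the 250 bases before the transcription start in RefSeq for GRCm38.p6, written 5′ to 3′ on the gene's strand; the Cyfip2 window is chr11:46312359-46312608 (minus strand) and the Pttg1 window is chr11:43425982-43426231 (minus strand).
Cyfip2 promoter: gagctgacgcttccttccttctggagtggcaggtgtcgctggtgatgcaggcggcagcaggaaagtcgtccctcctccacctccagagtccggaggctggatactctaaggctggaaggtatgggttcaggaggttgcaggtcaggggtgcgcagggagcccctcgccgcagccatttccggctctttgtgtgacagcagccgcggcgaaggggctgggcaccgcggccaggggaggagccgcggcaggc
Pttg1 promoter: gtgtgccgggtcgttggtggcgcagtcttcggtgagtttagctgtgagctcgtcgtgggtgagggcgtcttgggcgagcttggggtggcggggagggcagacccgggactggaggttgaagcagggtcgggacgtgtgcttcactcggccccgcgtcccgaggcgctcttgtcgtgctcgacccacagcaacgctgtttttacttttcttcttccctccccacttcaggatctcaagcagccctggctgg
A search of both strands for the TATA box (TATAAA), the CCAAT box (CCAAT), the GC box (GGGCGG), the E-box (CACGTG) and the CRE (TGACGTCA) found no match in either window. Of 32851 promoter windows of that length, 12.4% hold the TATA box, 33.8% the CCAAT box, 32.7% the GC box, 6.02% the E-box and 1.55% the CRE. The GC content was 66.4% for Cyfip2 and 63.6% for Pttg1, where the median promoter has 52.4%.

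Partners of these 3 genes were not divided in the same way. Among 11 other tested genes of the WAVE complex and CYFIP partners, none had a gap of 1 or more and the widest was 0.56 for Wasf3. Nckap1, a WAVE complex scaffold, ran from 100 to 137 CPM. Among 12 other genes of securin, separase and cohesin the widest gap was 0.47 for Cdc20, an activator of the anaphase-promoting complex, and Stag2, a cohesin subunit, ran from 104 to 135 CPM. Among 14 other immediate early genes the widest gap was 0.67 for Nr4a3, and Dusp1, a MAP kinase phosphatase, ran from 49.8 to 81.7 CPM. The 3 lists had median gaps of 0.09, 0.06 and 0.26, beside 0.14 over all autosomal genes.

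A likeness was scored between genes as the identical division of the 12 libraries with a gap of at least 1, in either direction. Besides each other, Cyfip2, Pttg1 and Arc had 12 such genes, and the closest were Hba-a2 (gap 4.75), an alpha-globin gene on chromosome 11 that lay at 12 to 30.3 CPM in the libraries numbered 3 and at 0 to 0.329 CPM elsewhere, and the processed pseudogene Gm1821 (gap 2.34), which ran the opposite way. Hba-a1, the neighbouring copy of the same globin, ran from 13.2 to 57.2 CPM, with the libraries numbered 3 inside that range. Of the 14 genes with the division and gap of Cyfip2, 8 were on chromosome 11 with it, which carries 8.85% of the tested autosomal genes, and 2 were on chromosome 15 with Arc. How this share bears on the genes was not tested.

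Cwc22 and Rps2 were low in the libraries labelled control LV 2, control RV 2, WntLOF LV 1 and WntLOF RV 1 and high in the other 8. Cwc22 (ENSMUSG00000027014, chromosome 2) encodes a spliceosome protein that places the exon junction complex on messenger RNA, and it is known to lie in a segment whose copy number varies between mouse populations. Cwc22 was at 200, 11.9 and 210 CPM in control LV, at 191, 14.8 and 201 CPM in control RV, at 17.9, 208 and 189 CPM in WntLOF LV, and at 13.2, 182 and 176 CPM in WntLOF RV. The 8 high libraries spanned 176 to 210 CPM with no step over 0.06 on the log2 scale, and the 4 low ones spanned 11.9 to 17.9 CPM. In the annotation, 7 further genes (Gm13691 and Gm13693 to Gm13698) match the Cwc22 transcript with 96.9% identity over 2514 bases, and all 7 are listed at 0 counts in all 12 libraries. How reads that fit several copies were counted is not given, so the Cwc22 level is the level of reads assigned to this copy.

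Rps2 (ENSMUSG00000044533, chromosome 17) encodes a protein of the small ribosomal subunit. Rps2 was at 51.4, 3.01 and 38 CPM in control LV, at 51, 2.52 and 55.3 CPM in control RV, at 2.85, 39.6 and 60.9 CPM in WntLOF LV, and at 2.39, 49.4 and 62.9 CPM in WntLOF RV. The low libraries were the 4 in which Cwc22 was low. None of the 31 other tested genes of the small ribosomal subunit had a gap of 1 or more, and the widest was 0.69 for Rps18. Rps18 ran from 2.74 to 7.8 CPM, and its high side held the libraries where Rps2 was high except WntLOF RV 2. Rps3, another protein of that subunit, ran from 190 to 281 CPM.

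In the low Rps2 libraries most of the summed reads of Rps2 and a near-identical copy were counted to the copy. Rps2-ps13 is a processed copy on the X chromosome that matches the Rps2 coding sequence over all of its 882 bases with 7 differences (99.2% identity) and with a longest stretch of 302 identical bases. Reads that cover no difference cannot be assigned to either. The first 100 coding bases of both are shown because no other window of that length holds more differences. Capitals mark the 2 differences in it.
Rps2: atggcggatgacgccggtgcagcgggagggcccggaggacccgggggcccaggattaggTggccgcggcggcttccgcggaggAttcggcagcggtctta
Rps2-ps13: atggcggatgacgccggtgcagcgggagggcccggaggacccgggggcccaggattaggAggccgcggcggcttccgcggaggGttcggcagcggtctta
Counted from the A of the start codon, with the Rps2 base before and the Rps2-ps13 base after the position, the 7 differences are T60A, A84G, T204C, G300A, C444T, C453A and T756C. Rps2-ps13 made up 88.7% of the summed reads of both genes in control LV 2 (95% Wilson interval 85.7% to 91.2%), 92.9% in control RV 2 (90.3% to 94.8%), 89.6% in WntLOF LV 1 (86.4% to 92%) and 90.9% in WntLOF RV 1 (87.9% to 93.1%). In WntLOF LV 2 and WntLOF RV 2 its share was 22.7% (19.8% to 25.7%) and 21.7% (19.3% to 24.3%). In the other 6 libraries it was at most 0.606% (0.278% to 1.32%), and in control LV 3 it was 0 of 502 reads, with an upper bound of 0.759%. The intervals cover counting error only.

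Summed over the reads assigned to either copy, the level was 26.1 to 35.2 CPM in the 4 libraries where Rps2 was low and 38 to 63.3 CPM in the other 8. How reads that fit both copies were counted is not given. The sum and the shares may thus leave such reads out, and they describe assigned reads only. The sides thus still did not overlap in the sum, and the widest gap of Rps2 dropped from 3.61 to 0.43. The 3 levels of the Rps2-ps13 share, 88.7% to 92.9%, 21.7% to 22.7% and at most 0.606%, separated the libraries without overlap of their intervals, and both libraries of a genotype and number had the same level for all 6 pairs. A further 37 near-copies of Rps2 in the count table matched it with at least 90% identity over at least 300 bases, and none exceeded 1.57 CPM in any library. With the libraries labelled control LV 2, WntLOF LV 1 and WntLOF RV 1 left out, control RV 2 was the last low library, and the gap was 0.31 for Rps2 and 0.06 for Cwc22, since at least 2 libraries are required on each side. The other 8 members kept gaps of 2.24 to 4.61 without those libraries.

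**Figure D3:**
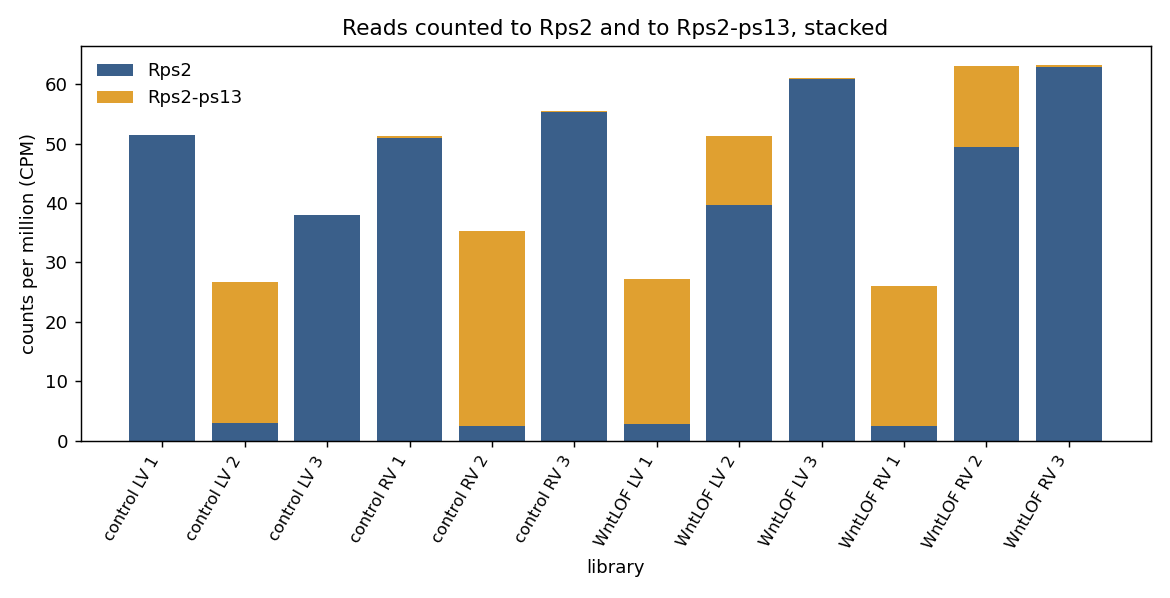
Stacked bars of the CPM assigned to Rps2 (blue) and to its X-linked copy Rps2-ps13 (yellow) in the 12 libraries (horizontal axis). The yellow part is 88.7% to 92.9% of the bar in the 4 libraries where Rps2 is low, 22.7% and 21.7% in WntLOF LV 2 and WntLOF RV 2, and at most 0.606% in the rest.

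The promoters of Cwc22 and Rps2 are printed because both genes were low in the same 4 libraries although they lie on different chromosomes. The window of Cwc22 is chr2:77946357-77946606 (minus strand) and that of Rps2 is chr17:24719813-24720062 (plus strand), both of 250 bases in RefSeq for GRCm38.p6 with motif matches on either strand in capitals.
Cwc22 promoter: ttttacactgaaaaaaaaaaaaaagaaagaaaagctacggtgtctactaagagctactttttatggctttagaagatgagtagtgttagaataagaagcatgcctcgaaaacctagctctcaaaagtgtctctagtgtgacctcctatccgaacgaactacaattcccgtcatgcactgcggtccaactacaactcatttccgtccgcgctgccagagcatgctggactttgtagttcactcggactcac
Rps2 promoter: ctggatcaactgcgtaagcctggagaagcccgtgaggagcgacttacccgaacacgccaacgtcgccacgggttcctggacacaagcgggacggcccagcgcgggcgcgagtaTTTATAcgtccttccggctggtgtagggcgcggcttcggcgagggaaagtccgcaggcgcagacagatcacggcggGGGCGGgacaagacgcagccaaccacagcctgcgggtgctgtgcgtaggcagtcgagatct
The Rps2 window held a match to the TATA box and a match to the GC box, and the Cwc22 window none to any of the 5 motifs. The windows also differed in GC content, with 42.8% for Cwc22 and 65.2% for Rps2. Besides each other, the genes most like this pair were Gm13394 (gap 4.4), a processed pseudogene on chromosome 2 that ran the opposite way with 36.2 to 56.8 CPM in the 4 libraries, and Gm13727 (gap 2.82), a transcript that overlaps Cwc22 on the same strand and had 0 counts in the 4 low libraries and 0.725 to 1.04 CPM in the other 8. Reads of overlapping genes cannot be told apart with certainty, so Gm13727 is no separate measurement of Cwc22. Among 13 other partners of CWC22 and the exon junction complex none had a gap of 1 or more, and Prpf8, a core spliceosome protein, ran from 240 to 321 CPM.

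Hsd17b7 (ENSMUSG00000026675, chromosome 1) encodes a reductase used in cholesterol synthesis and in making oestradiol. Hsd17b7 was at 1.65, 13.5 and 1.66 CPM in control LV, at 1.84, 19.7 and 1.44 CPM in control RV, at 16.9, 14.4 and 26.4 CPM in WntLOF LV, and at 12.7, 20.8 and 28.4 CPM in WntLOF RV. It was low in the control libraries numbered 1 and 3 and high in the control libraries numbered 2 and in all 6 WntLOF libraries, with a gap of 2.71. Of 17 other tested genes of cholesterol synthesis none had a gap of 1 or more. The widest was 0.34 for Mvd, and Hmgcs1, which makes the HMG-CoA precursor, ran from 40.6 to 50.5 CPM. The closest genes by division were the processed pseudogene Gm5514 on chromosome 19 (gap 3.51), which ran the opposite way with 11 to 13.9 CPM in the 4 libraries where Hsd17b7 was low and 0.333 to 0.856 CPM in the others, and Rergl on chromosome 6 (gap 1.16).

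Baiap2l1 (ENSMUSG00000038859, chromosome 5) encodes a membrane-bending adaptor of the actin cytoskeleton. Baiap2l1 was at 15.2, 12.5 and 104 CPM in control LV, at 15.3, 13.6 and 115 CPM in control RV, at 16.2, 14.9 and 12.3 CPM in WntLOF LV, and at 14.1, 17.9 and 17.9 CPM in WntLOF RV. The high side held the 2 control libraries numbered 3 alone, so that leaving out either of them took the gap from 2.53 to 0.13. The libraries WntLOF LV 3 and WntLOF RV 3, which shared the Cyfip2, Pttg1 and Arc state with those 2, were on the low side. Of 12 genes with the same division, 8 ran the opposite way, among them the closest 3: Hist1h2al (gap 3.24), Mndal (gap 3.15), an interferon-inducible gene that lay at 0.756 to 0.914 CPM in the 2 libraries and 9.09 to 25.4 CPM elsewhere, and Gm6166 (gap 2.77). Among 7 other genes of the BAIAP2 family and its partners the widest gap was 0.25 for Mtss1, and Enah, an actin regulator, ran from 97.2 to 148 CPM.

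Acot5 (ENSMUSG00000042540, chromosome 12) encodes a peroxisomal acyl-CoA thioesterase, which releases fatty acids from coenzyme A. Acot5 was at 1.9, 1.95 and 1.97 CPM in control LV, at 1.9, 1.46 and 2.02 CPM in control RV, at 1.78, 1.05 and 0 CPM in WntLOF LV, and at 1.56, 1.99 and 0 CPM in WntLOF RV. The 2 libraries at 0 are WntLOF LV 3 and WntLOF RV 3. A count of 0 allows up to 3 counts, which is 0.168 and 0.192 CPM there. The lowest of the other 10 libraries, at 1.05 CPM, was 5.49-fold above the higher of these limits. That ratio leaves out the counting error of the lowest library, so it is no lower bound. The high side rests on 16 to 37 counts per library, and without WntLOF LV 3 or WntLOF RV 3 the gap was 0.42 and 0.43. The related genes Acot3 (92.8% identity over 666 bases), Acot6 (94.8% over 458 bases) and 4732463B04Rik (93.5% over 306 bases) could share reads with it. None of the 10 other tested acyl-CoA thioesterases had a gap of 1 or more: Acot3 ran from 0.461 to 1.37 CPM and Acot6 from 2.57 to 4.41 CPM, and the lowest library of each was WntLOF LV 2. The closest gene by division was the processed pseudogene Gm15772 on chromosome 5 (gap 2.37, same direction), followed by Gm22513 (gap 1.5) and Gm10039 (gap 1.31), which ran the opposite way.

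Nxpe4 (ENSMUSG00000044229, chromosome 9) belongs to the neurexophilin and PC-esterase domain family. Nxpe4 was at 0.206, 11.1 and 0.378 CPM in control LV, at 0.223, 0.0662 and 0.718 CPM in control RV, at 9.19, 9.74 and 0.673 CPM in WntLOF LV, and at 11.8, 7.94 and 0.447 CPM in WntLOF RV. The high side held the WntLOF libraries numbered 1 and 2 and the library labelled control LV 2, and its 5 values lay within 7.94 to 11.8 CPM. It was the sole member on which control LV 2 and control RV 2 stood on opposite sides, with 210 counts in the former and 1 count in the latter. Nxpe2, which overlaps Nxpe4 on the other strand, had the same division with a gap of 0.77 and ran from 0.978 to 4.39 CPM; with the strand setting not given, reads of the 2 genes cannot be told apart where they overlap. Nxpe3 and Nxpe5 had gaps of 0.33 and 0.3 and other divisions. The closest genes elsewhere were 2 pseudogenes on chromosome 2, Gm13453 (gap 2.51, opposite direction) and Gm13712 (gap 1.27, same direction).

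Plekhh2 (ENSMUSG00000040852, chromosome 17) encodes a FERM-domain protein of the actin cytoskeleton, studied in kidney podocytes. Plekhh2 was at 70.9, 134 and 37.7 CPM in control LV, at 22.4, 34.6 and 1730 CPM in control RV, at 22.7, 22.1 and 3310 CPM in WntLOF LV, and at 141, 2200 and 11300 CPM in WntLOF RV. Unlike the other 9 genes it had no flat high side: its 4 high libraries were spread from 1730 to 11300 CPM, the widest step among them was 1.78 where the other 9 genes had at most 0.43, and its low side spanned 22.1 to 141 CPM. The library WntLOF RV 3 alone held 177351 Plekhh2 counts. The high libraries were control RV 3, WntLOF LV 3, WntLOF RV 2 and WntLOF RV 3, so that control LV 3 and WntLOF LV 2 were low while the RV libraries of the same genotype and number were high. No other tested autosomal gene shared this division with a gap of 1 or more. Among the 4 other tested PLEKHH and MyTH4-FERM genes the widest gap was 0.75 for Plekhh1, and Myo10, an unconventional myosin of filopodia, ran from 171 to 219 CPM.

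States were compared between libraries, a state being the side of the widest gap. LV and RV libraries of the same genotype and number shared the state of 9 or 10 of the 10 genes. The genes were selected for divisions that do not follow the ventricle, which favours such sharing. Cyfip2, Pttg1 and Arc share a division, as do Cwc22 and Rps2, so the 10 genes are not 10 separate counts. The numbers here are a description. All 10 were shared for control 1, WntLOF 1 and WntLOF 3, control 3 and WntLOF 2 differed in Plekhh2, and control 2 differed in Nxpe4. Libraries of the same genotype and another number shared 1 to 8 (median 5, 24 pairs), those of the other genotype and the same number 6 to 8 (median 6, 12 pairs), and those that differed in both 1 to 10 (median 4, 24 pairs). The library labelled control LV 2 shared all 10 states with WntLOF LV 1 and with WntLOF RV 1, and control RV 2 shared 9 with each.

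The 25 other autosomal genes with a gap of 2 or more, which include 8 protein-coding genes and 17 pseudogenes or non-coding RNAs, gave another count of the same kind from genes outside the set. Here 5 of the 6 LV and RV pairs of the same genotype and number shared all 25 states, and control LV 2 and control RV 2 shared 19. The library labelled control LV 2 shared all 25 with WntLOF LV 1 and with WntLOF RV 1, and no other pair across genotypes shared more than 19. Control 3 and WntLOF 2, which differed in Plekhh2, shared all 25 between their ventricles. These 25 genes were selected by the same measure in the same libraries, so the counts are a description, and where the library labelled control LV 2 came from was not tested.

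**Figure D4:**
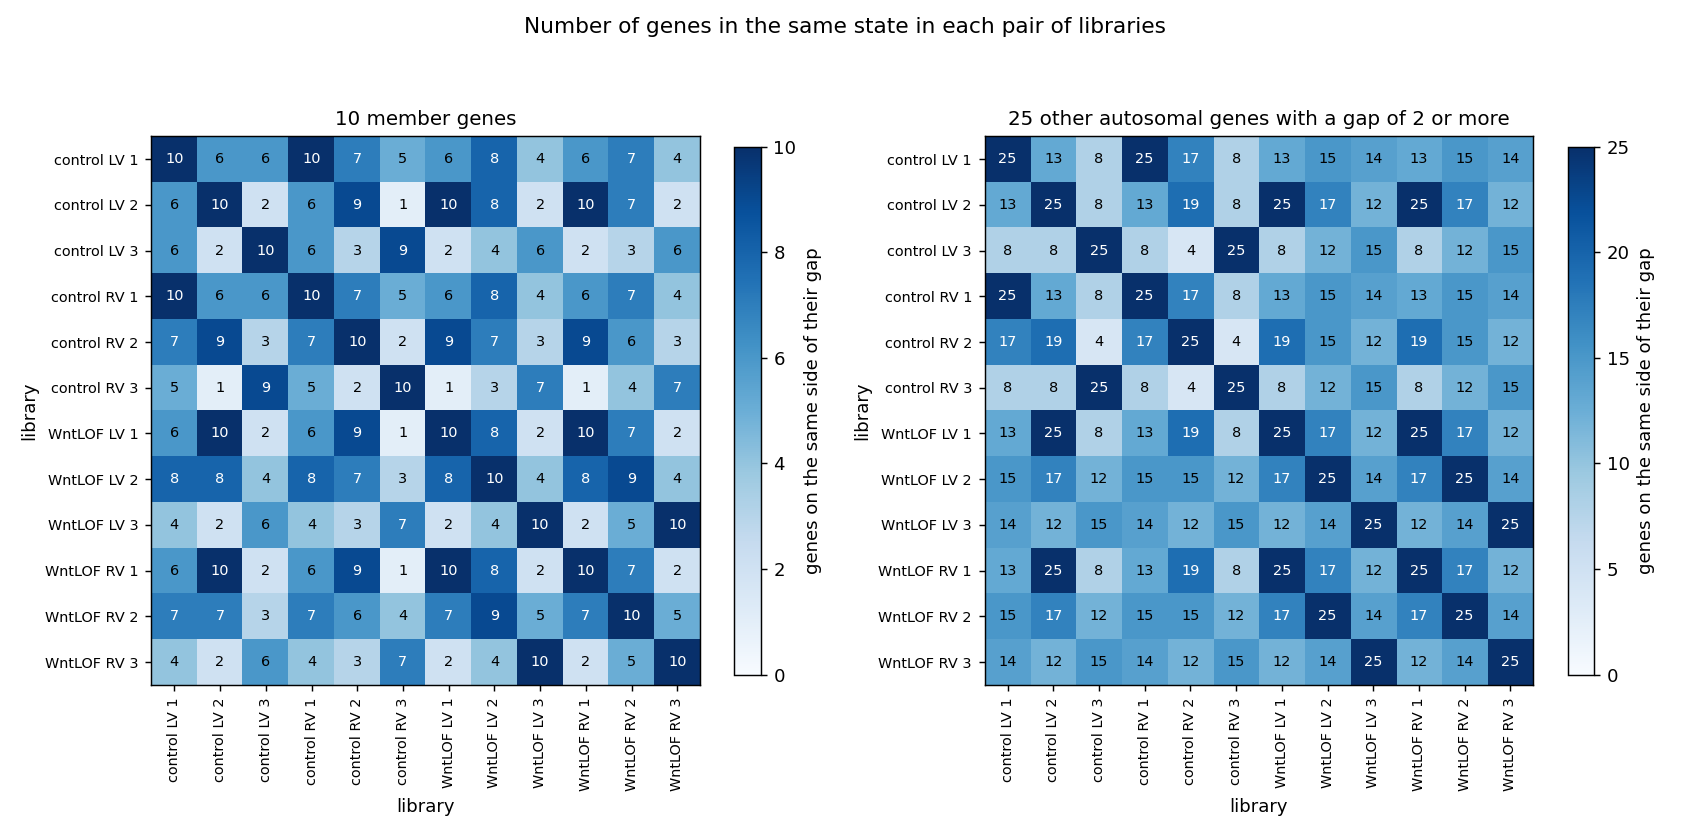
Number of genes in the same state (high or low side of the widest gap) in each pair of the 12 libraries, for the 10 members (left, of 10) and for the 25 other autosomal genes with a gap of 2 or more (right, of 25), with rows and columns the libraries by label. The library labelled control LV 2 shares 10 and 25 states with WntLOF LV 1 and WntLOF RV 1, and 9 and 19 with control RV 2.

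Neighbouring genes mostly did not follow the members. Of the 5 tested genes on each side of each member in gene order, 100 in all, 5 had the member's division with a gap of at least 0.5: Fndc9 (1.41) and Gm12167 (1.55) beside Cyfip2, Psca (1.16) beside Arc, Gm13727 (2.82) beside Cwc22 and Nxpe2 (0.77) beside Nxpe4. Over all tested autosomal genes the division of Cyfip2 and Arc was met with that gap in 0.187%, that of Cwc22 in 0.107% and that of Nxpe4 in 0.0535%. Fndc9, Gm13727 and Nxpe2 overlap the member in the annotation, so that their reads may be shared with it, whereas Gm12167 and Psca do not. No neighbour of Pttg1, Hsd17b7, Baiap2l1, Plekhh2, Acot5 or Rps2 had the member's division with such a gap, and the widest gap of any kind among their neighbours was 0.72, next to Rps2.

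**Figure D5:**
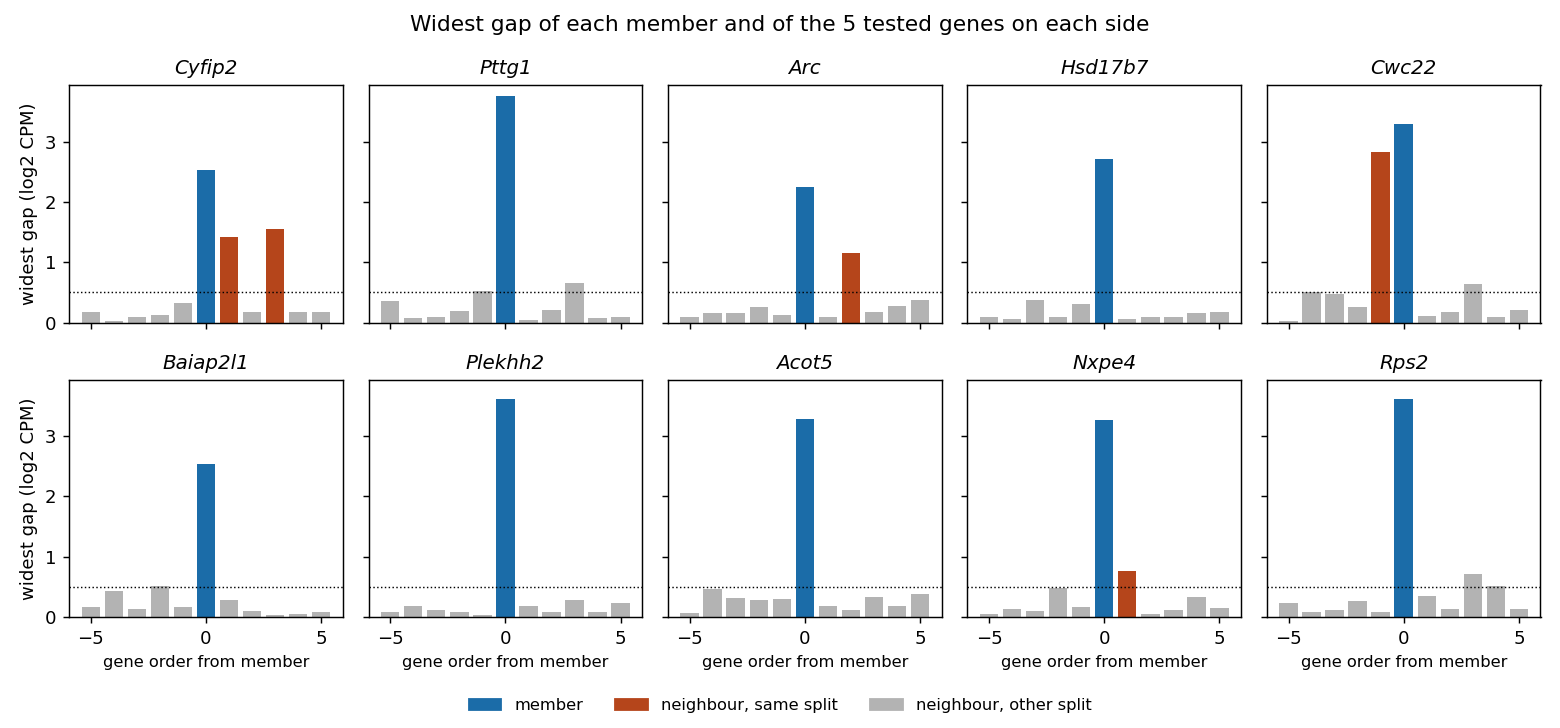
Widest gap in log2 CPM (vertical axis) of each member (blue) and of the 5 tested genes on each side of it in gene order (horizontal axis), with neighbours that divide the libraries as the member does in red and the others in grey; the dotted line is a gap of 0.5. The 5 red bars above the line stand beside Cyfip2, Arc, Cwc22 and Nxpe4.

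Between genotypes, the states were unevenly placed for some members. Hsd17b7 was high in 2 of 6 control and 6 of 6 WntLOF libraries, Nxpe4 in 1 of 6 and 4 of 6, Plekhh2 in 1 of 6 and 3 of 6, Baiap2l1 in 2 of 6 and 0 of 6, and Acot5 in 6 of 6 and 4 of 6. Cyfip2, Pttg1 and Arc were high in 2 of 6 and 2 of 6, and Cwc22 and Rps2 in 4 of 6 and 4 of 6. Without the libraries labelled control LV 2, WntLOF LV 1 and WntLOF RV 1, the counts were 1 of 5 control and 4 of 4 WntLOF libraries for Hsd17b7, 0 of 5 and 2 of 4 for Nxpe4, 1 of 5 and 3 of 4 for Plekhh2, 2 of 5 and 0 of 4 for Baiap2l1, and 5 of 5 and 2 of 4 for Acot5. They were 2 of 5 and 2 of 4 for Cyfip2, Pttg1 and Arc and 4 of 5 and 4 of 4 for Cwc22 and Rps2. The same count holds 2 ventricles that may be 1 animal, so 6 libraries may stand for 3 hearts.

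In the fit across all 15494 tested genes (edgeR quasi-likelihood test with Benjamini-Hochberg adjustment, WntLOF against control), 0 genes (0%) were called at an adjusted p under 0.05 in the LV, 0 (0%) in the RV and 0 (0%) over both ventricles, and none of the 10 members was. At an unadjusted p under 0.05 stood 442 genes in the LV (2.85%), 418 in the RV (2.7%) and 560 over both (3.61%), and 0 of the 10 members in each. DESeq2 called 0, 0 and 5 genes in the 3 comparisons, none of them a member, with 323, 303 and 441 genes at an unadjusted p under 0.05, of which 1, 1 and 3 were members. For Pttg1, Arc and Baiap2l1 DESeq2 gave no adjusted p in the LV or the RV, so these members could not be called there. The comparison over both ventricles counts the LV and RV libraries of 1 number as independent, although their deviations from the group means were correlated. With the counts of each such pair summed, an alternative added after seeing the data that leaves 3 sums per genotype, 0 genes passed adjustment in edgeR and 1 in DESeq2. Before adjustment 273 and 194 were under 0.05, and none of the 10 members was among them. The sum for control 2 joins the library labelled control LV 2 to control RV 2, which shared 19 of the 25 other states. It may thus join different animals, and no summed fit was made without the libraries that went against their labels. Hsd17b7 had a log2 difference of 1.74 (SE 1.07) for the LV and 1.44 (SE 1.06) for the RV, with mean levels of 5.62 ± 6.87 CPM (SD, n = 3 in this and the next values) in control LV, 19.2 ± 6.33 CPM in WntLOF LV, 7.67 ± 10.4 CPM in control RV and 20.6 ± 7.83 CPM in WntLOF RV. That of Plekhh2 was 3.79 (SE 2.55) and 2.94 (SE 2.45), that of Nxpe4 0.70 (SE 1.41) and 4.32 (SE 1.96), and that of Baiap2l1 -1.58 (SE 1.05) and -1.52 (SE 1.04). Acot5 had -1.05 (SE 0.91) and -0.58 (SE 0.89). For Cyfip2, Pttg1, Arc, Cwc22 and Rps2 the difference lay between -0.42 and 0.17, with standard errors from 1.4 to 1.94. Without the libraries labelled control LV 2, WntLOF LV 1 and WntLOF RV 1, 0 genes were called in each comparison, and the LV difference was 3.62 for Hsd17b7, 4.17 for Nxpe4, 4.93 for Plekhh2, -2.13 for Baiap2l1 and -1.94 for Acot5; in the RV it was 1.70, 3.63, 3.51, -1.42 and -0.83 in the same order.

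The 3 libraries of each genotype did not overlap for 2 of the 10 members in the LV, beside 7.9% of all tested genes, and for 0 in the RV, beside 7.56%. The 2 were Acot5, with WntLOF below, and Hsd17b7, with WntLOF above. For Hsd17b7 the nearest values were 13.5 CPM in the library labelled control LV 2 and 14.4 CPM in WntLOF LV 2, and in the RV the value of 19.7 CPM in control RV 2 lay inside the WntLOF range of 12.7 to 28.4 CPM. For Acot5 the nearest values were 1.78 CPM in WntLOF LV 1 and 1.9 CPM in control LV 1. All 4 of these values are on the high side of the gene's gap, so the separation turns on small steps within that side. Since the members were chosen on these libraries, nothing is read from either count.

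Over the 10 partner lists and a further list of genes known to differ by deletion, copy number or insertion between laboratory strains, with 9 tested genes of which Cwc22 is one, 0 genes other than the members were called in either ventricle. The median log2 difference of the lists ran from -0.15 to 0.15 in the LV and from -0.09 to 0.56 in the RV, beside 0 over all tested genes, where 49.1% and 50.3% of genes had a difference above 0. The value of 0.56 is that of the NXPE family, which has 3 other tested genes. In the strain list Cwc22 had a gap of 3.29 and none of the 8 others had 1 or more. The nearest was Ifi202b with 0.98, an interferon-inducible gene that was highest in the control libraries numbered 3, the libraries where Baiap2l1 was high. Nnt, the mitochondrial transhydrogenase that is partly deleted in some C57BL/6 substrains, ran from 1150 to 1320 CPM.

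The authors' deposited table for the LV and that for the RV list all 10 members, and their log2 CPM values divide the libraries as the counts did for each of the 10. The lowest adjusted p of any gene was 0.841 in the authors' deposited table for the LV and 0.918 in that for the RV. For Hsd17b7 the authors' deposited tables give a log2 fold change of 2.30 in the LV and 2.76 in the RV, for Nxpe4 2.36 and 4.12, and for Plekhh2 0.38 and 4.01. The LV difference of Plekhh2 was 3.79 by the edgeR fit and 0.38 in the authors' deposited table. Mean CPM of Plekhh2 was 80.7 in control LV and 1120 in WntLOF LV, where WntLOF LV 3 alone stood at 3310. Averaged as log2 CPM, the levels were 6.15 and 6.89, which lie closer together. Why the edgeR fit and the deposited table differ was not tested. At an unadjusted p under 0.05 the authors' deposited table for the LV holds 3 of the 10 members, beside 5.6% of all its genes: Arc (0.021), Hsd17b7 (0.00591) and Nxpe4 (0.0429). That for the RV, also the authors' deposited table, holds 4, beside 5.39%: Hsd17b7 (0.00153), Baiap2l1 (0.0238), Plekhh2 (0.014) and Nxpe4 (0.0152). The members were chosen on the same libraries, so nothing is read from these counts.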

How the data were processed

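The authors deposited raw counts per Ensembl gene for all 12 libraries. The submitters' processing notes list Subread, featureCounts and edgeR. Their roles and versions, the alignment settings, genome build and strand setting were not given in the sources used here. Of 41192 rows, 598 repeat a gene with equal counts and were dropped. Per the file headers, 2 further tables from the authors hold genotype comparisons: log2 fold changes, log2 CPM per library, p-values and a signed score of fold change.

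Counts were analysed with edgeR 4.0.16 (filterByExpr, TMM factors 0.961 to 1.04, quasi-likelihood with robust dispersion, 1 mean per group over 12 libraries), with DESeq2 1.42.0 as an alternative, in R 4.3.3; Benjamini-Hochberg adjustment ran over 15494 genes with a threshold of 0.05. CPM are scaled by TMM and not by gene length, so levels of different genes are not compared. Total counts of 13.3 to 19.2 in units of 1e+06 set the precision. Genes were matched to chromosomes, order and transcripts in GENCODE M21, with copies found by blastn 2.17.0, and 26 tested genes had no chromosome. The promoter table is RefSeq GRCm38.p6, in which 9 of the 10 members matched. Nearness of 2 libraries was the mean chi-square of their counts over genes with at least 50 summed counts.

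The members and lists were chosen with earlier results of these data known. The rule for named genes takes the members, Ctnnb1, Xist and Ddx3y, up to 3 genes with the same division and a gap of at least 1 per member, the genes next to the threshold, neighbours with the same division and a gap of at least 0.5, and up to 3 genes per list. Genes named for the widest gap in a list, Hba-a1, Wif1 levels, gene copies and Rps2-ps13 were chosen after their values were seen. The computations were tested on simulated data.

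Equal replicate numbers were not taken to pair the genotypes, since the correlations of deviations from the group means were -0.043, -0.09 and 0.233 in the LV and 0.089, 0.113 and 0.306 in the RV for numbers 1 to 3. The highest value in each ventricle was that of number 3, the library with Ddx3y in each group. The main fit leaves this difference in the spread within groups. An alternative with a term for the number, the replicate block, takes it up together with any other feature of the number. LV and RV libraries of the same genotype and number were correlated in all 6 pairs, at 0.411, 0.29 and 0.517 for control and 0.191, 0.197 and 0.594 for WntLOF, so their counts were also summed per number for the comparison over both ventricles. Alternatives were other size factors, filters, prior counts, tools and leaving out libraries.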

Additional observations from a re-analysis of the deposited data

How the results depend on the processing

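No member was called in the LV or the RV in any alternative, but DESeq2 gave no adjusted p for Pttg1, Arc and Baiap2l1. Counts of called genes stayed at 0 under every other alternative run except DESeq2, which called 5 over both ventricles and 1 with LV and RV counts summed per number, and leaving out 1 library, where the RV and both-ventricle counts ran from 0 to 1, with 1 gene called without WntLOF LV 1; the LV count was 0 to 0. The replicate block called 0 genes in each comparison and turned the Plekhh2 difference in the LV to -0.29. A prior count of 5 left 22 autosomal genes with a gap of 2 or more instead of 35, while leaving out 1 library gave 31 to 40. All 10 members kept the gap under other factors and prior counts, and 9 to 10 did when 1 library was left out. Total counts gave 0 for Cwc22 in the LV. Without the libraries labelled control LV 2, WntLOF LV 1 and WntLOF RV 1, added after seeing the data, the RV difference was 0.18 for Arc and 0.40 for Cwc22. Leaving out 1 library, the LV log2 differences ran from -2.22 to 1.92 for Cyfip2, -2.37 to 2.92 for Pttg1, -2.03 to 1.36 for Arc, -0.57 to 0.50 for Cwc22, -2.03 to 0.07 for Baiap2l1, -1.84 to 4.36 for Plekhh2 and -0.53 to 0.78 for Rps2. In the RV they ran from -2.51 to 3.59 for Cyfip2, -2.89 to 3.18 for Pttg1, -2.14 to 1.43 for Arc, -0.66 to 0.40 for Cwc22, -1.96 to 0.20 for Baiap2l1 and -0.50 to 0.63 for Rps2. With no change of sign, the LV differences ran from 1.29 to 3.54 for Hsd17b7, 0.14 to 4.52 for Nxpe4 and -1.94 to -0.43 for Acot5, and the RV differences from 0.95 to 3.64 for Hsd17b7, 0.97 to 7.33 for Plekhh2, -1.14 to -0.02 for Acot5 and 3.64 to 5.43 for Nxpe4. Summing the counts of Rps2 and Rps2-ps13, also added after seeing the data, took the Rps2 gap to 0.43. A sign that turns says no more than that these differences are small beside the spread between libraries, and the causes were not tested.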

Other observations

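The autosomal genes with a gap of 2 or more that are not members, named after their values were seen, hold several that divide the libraries in ways no member does. Tpm3-rs7 (gap 3.53, chromosome 14) was at 4.97 to 6.59 CPM in control LV 1, control RV 1 and control RV 2 and at 0 to 0.32 CPM in the other 9 libraries, and Rpsa-ps10 (gap 4.6, chromosome 3), a processed copy of a ribosomal protein gene, was at 14.3 to 25.8 CPM in those 3 libraries and in WntLOF LV 2 and WntLOF RV 2. Rims2 (gap 2.07, chromosome 15), a gene of synaptic vesicle release, was at 1.18 to 1.79 CPM in control RV 2, WntLOF LV 2 and WntLOF RV 2 and at no more than 0.192 CPM elsewhere. In all 3 genes control RV 2 differed from the library labelled control LV 2. Trim5 (gap 2.35, chromosome 7), a restriction factor gene, was at 0.0515 to 0.112 CPM in control LV 1 and control RV 1 and at 1.06 to 1.74 CPM in the other 10 libraries.

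Among the genes that share the division of Cwc22 and Rps2 are H2-Eb1 and Cacna1h. H2-Eb1 (gap 2.11, chromosome 17), a class II antigen presentation gene, was at 4.41 to 15 CPM where Cwc22 and Rps2 were high and at 0.474 to 0.927 CPM where they were low, and Cacna1h (gap 1.38, chromosome 17), a T-type calcium channel, was at 10.2 to 15.7 CPM and 3.01 to 3.85 CPM. These values are descriptions of genes chosen for their gap, and no test was made.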
